A study of Mus musculus with 32 samples.

Results

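What low dose regorafenib adds to checkpoint blockade was examined by comparing 3 tumour libraries of mice given regorafenib with an anti-PD1 antibody against 3 tumour libraries of mice given the antibody alone. The 6 libraries were those whose labels named these treatments, out of 32 in the series. All were from liver tumours that grew from BNL-MEA, a mouse liver cancer cell line, after implantation in the liver of BALB/c mice. Regorafenib was given by gavage at 5 mg/kg/day, and the antibody blocks PD1 and was injected intraperitoneally. Both groups therefore received the antibody, and the groups differed in regorafenib. The same experiment also held 3 libraries of vehicle-treated mice and 3 of mice given regorafenib at 5 mg/kg/day without the antibody, and these served as background. All 12 libraries carry the same mark, p101, in their titles. The labels give neither age nor sex and do not state that the libraries came from separate animals. A figure legend of the study speaks of 3 tumours per treatment, so p-values measure the spread between these tumours. Every tumour grew from 1 cell line, which limits the groups as a model.

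PD1 is an inhibitory receptor on activated T cells, and antibodies against it release T cells from inhibition by ligands on tumour and myeloid cells. Regorafenib is an oral multikinase inhibitor whose targets include the VEGF, PDGF and FGF receptors, KIT, RET, TIE2 and the CSF1 receptor, so that vessels, stroma and macrophages can all be affected. Liver tumours hold hepatocytes, endothelium, macrophages, fibroblasts and lymphocytes beside the tumour cells, and in a bulk library a lower level of a cell type's gene may mean fewer such cells or less RNA per cell, which cannot be told apart.

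The 6 libraries held 20.5 to 25.3 M counts, and between 22674 and 23748 genes had at least 1 count. Markers fixed for the cell types were found in all 6, with the epithelial keratin Krt8 between 34.5 and 145 CPM (counts relative to the library's total after TMM scaling), the macrophage marker Csf1r between 460 and 754 CPM, and the hepatocyte product Alb between 280 and 5240 CPM. The hepatocyte content was not even. Averaged over 38 hepatocyte genes, log2 CPM was 3.52, 5.10 and 4.59 with anti-PD1 and 8.33, 5.68 and 5.44 with the combination, so that the groups did not overlap and replicate 1 of the combination stood far above the rest. The share of counts from mitochondrially encoded genes also differed without overlap, at 0.68%, 0.52% and 0.37% with anti-PD1 and 2.34%, 1.43% and 1.36% with the combination. The part of either measure in the results that follow was not tested beyond refits with each as a covariate.

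No gene passed an adjusted p of 0.05 in edgeR's quasi-likelihood test among 16615 genes (0%), and the smallest adjusted p was 0.337. At an unadjusted p under 0.05, 1083 genes (6.52%) were higher with the combination and 360 (2.17%) were lower, 1443 in all, where 831 would be expected if no gene differed. The libraries of both groups did not overlap for 2663 genes with the combination above (16%) and for 2380 with it below (14.3%), and these shares are the background for the counts given for gene lists. Without combination replicate 3, 885 of the 16615 genes were higher and 124 lower at an unadjusted p under 0.05 in edgeR. Without combination replicate 1 these numbers were 562 and 236. They are the background for list counts from those refits. By other tools, limma voom called 0 genes and DESeq2 called 180 higher (1.08%) and 30 lower (0.181%). No single-gene difference was therefore established by the main test. The values below describe which genes and gene groups stood apart between these 6 tumours, and in this comparison none is a call by edgeR, although DESeq2 called some of the genes named.

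Ak3, an adenylate kinase of the mitochondrial matrix (chr19:29020833-29047961, GRCm38, protein coding), had the smallest p. It was at 23.7, 26.2 and 32.6 CPM with anti-PD1 and at 89.1, 76.0 and 64.0 CPM with the combination, a log2 difference of 1.47 ± 0.21 (SE, adjusted p = 0.337). Vehicle libraries were at 46.7 to 58.8 CPM and lay between both groups, as did those with regorafenib alone at 49.3 to 56.9 CPM. The mitochondrial share of counts differed in the same direction. Over 24 alternative settings, among them a refit with that share as a covariate, the log2 difference of Ak3 was between 1.29 and 1.62. The part of that share was not tested further. Fam131b, a protein-coding gene on chromosome 6, was at 1.30 to 2.57 CPM with anti-PD1 and at 4.47 to 12.7 CPM with the combination (log2 difference 2.32 ± 0.46, adjusted p = 0.472).

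Genes of B cells and plasma cells had the highest median difference of the 36 lists, although not in every alternative, as hepatocyte genes were above them without combination replicate 3 (2.69 against 1.91). Igkc, the immunoglobulin kappa constant gene (chr6:70726435-70726966), was at 3.4, 2.71 and 2.65 CPM with anti-PD1 and at 44.5, 24.9 and 130 CPM with the combination, a log2 difference of 4.50 ± 0.70 (adjusted p = 0.369). Jchain, which encodes the joining chain of secreted IgA and IgM (chr5:88519809-88527891), was at 0.922, 0.727 and 0.434 CPM against 7.48, 5.75 and 39.9 CPM, a log2 difference of 4.66 ± 0.83 (adjusted p = 0.472). Every combination library was above every anti-PD1 library for both genes, with replicate 3 of the combination the highest. In the vehicle libraries Igkc was at 4.67 to 10.1 CPM, and with regorafenib alone at 43.8, 83.0 and 184 CPM, so the level of the combination was also met without the antibody.

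The other members of the list with the smallest p had few counts in the anti-PD1 libraries. Iglc2, a lambda constant gene, had 1, 2 and 3 counts with anti-PD1 and 41, 50 and 489 counts with the combination, a ratio of 82.0 (95% interval 37.4 to 224). Ighg3, the heavy chain constant gene of IgG3, had 0, 0 and 2 counts against 57, 18 and 55 counts, a ratio of 55.1 (95% interval 15 to 460). Combination replicate 3 held most of the Iglc2 counts, and the fitted log2 difference of 6.31 was 4.17 without it. The intervals are exact and cover counting error only, not the spread between tumours. Reads of immunoglobulin segments can be split among near-identical copies, which makes the single values uncertain.

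Over the list of B cell and plasma cell genes, 16 of 23 tested members were higher at an unadjusted p under 0.05 and 1, the plasma cell proteoglycan Sdc1, was lower. Groups did not overlap for 15 members above and 1 below, and the median log2 difference was 2.55, where the median over all genes was -0.004. Among members with at least 10 counts in every library the median was 1.11. The B cell receptor component Cd79a overlapped, with 2.38, 2.47 and 0.675 CPM with anti-PD1 and 1, 1.63 and 2.53 CPM with the combination. With regorafenib alone against vehicle the median of the list was 1.79, and the list median of the difference between both regorafenib changes was 0.06. Immunoglobulin counts made up 0.00405% to 0.00579% of the library with anti-PD1 and 0.0179% to 0.0693% with the combination. DESeq2 called 9 members of the list.

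**Figure D1:**
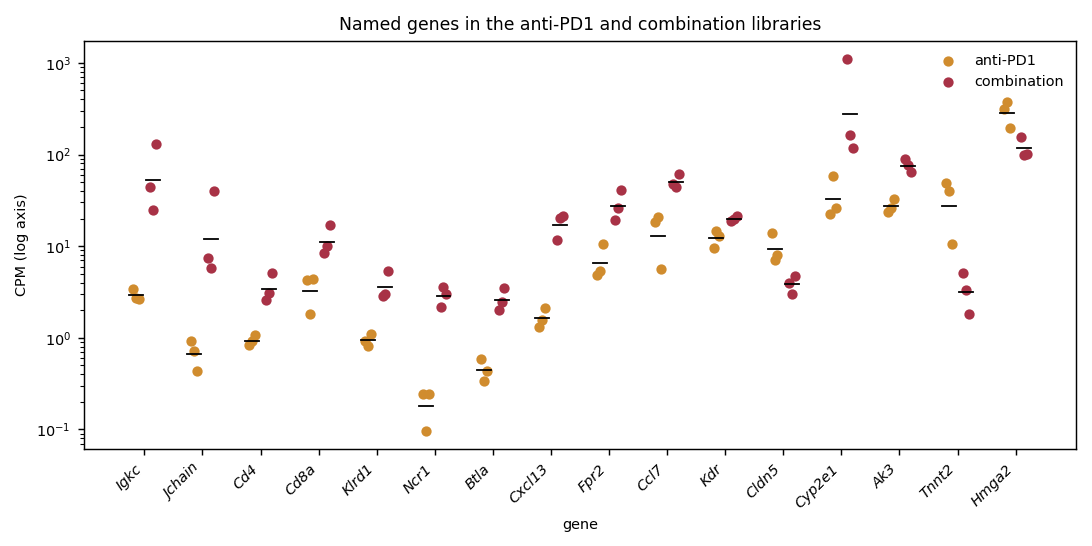
CPM (log axis) of 16 named genes in the 3 anti-PD1 libraries (orange) and the 3 combination libraries (dark red), with a black line at the geometric mean of each group. For Igkc the anti-PD1 libraries lie between 2.65 and 3.4 CPM and the combination libraries between 24.9 and 130 CPM, and the groups are apart for each of the 16 genes, which were selected with their values known.

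T cell genes were higher with the combination in most members. Cd4, the coreceptor of helper and regulatory T cells, was at 0.825, 0.921 and 1.06 CPM with anti-PD1 and at 2.57, 3.07 and 5.06 CPM with the combination, a log2 difference of 1.92 ± 0.59 (adjusted p = 0.472). Cd8a, the coreceptor of cytotoxic T cells, was at 4.22, 1.84 and 4.43 CPM against 8.35, 10.1 and 16.9 CPM, a log2 difference of 1.75 ± 0.83 (adjusted p = 0.591). Neither gene overlapped between the groups. The vehicle libraries spread wider, at 14.7, 3.65 and 0.713 CPM for Cd8a, and thus spanned nearly the whole range of both groups. Foxp3, the transcription factor of regulatory T cells, had 2, 2 and 1 counts with anti-PD1 and 21, 50 and 82 counts with the combination, a ratio of 26.0 (exact 95% interval 10.9 to 81.1, counting error only). Icos, a costimulatory receptor of activated T cells, was at 0.194 to 0.723 CPM with anti-PD1 and at 1.44 to 4.94 CPM with the combination (log2 difference 2.75 ± 0.77). Cd5, a surface protein of T cells that dampens receptor signalling, showed 0.194 to 0.579 CPM against 1.26 to 3.21 CPM (log2 difference 2.55 ± 0.77). Foxp3, Icos and Cd5 were of low abundance.

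Of 22 tested T cell genes, 15 were higher and 0 lower at an unadjusted p under 0.05 in edgeR, 19 had groups that did not overlap, and the median log2 difference was 1.78. The score of the list, its mean log2 CPM, ran from -0.37 to 0.67 with anti-PD1, from 1.34 to 2.55 with the combination and from -0.42 to 1.85 in vehicle libraries. The median stayed between 1.48 and 2.50 over all alternative settings, but the count at an unadjusted p under 0.05 was 17 of 22 after adding the hepatocyte score to the fit, 6 after adding the mitochondrial share and 6 without combination replicate 3.

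Cytotoxic and natural killer (NK) cell genes showed the same direction. Ncr1, the activating NK receptor NKp46, was at 0.243, 0.0969 and 0.241 CPM with anti-PD1 and at 2.17, 3.56 and 3.04 CPM with the combination, a log2 difference of 3.88 ± 0.80 (adjusted p = 0.472). Fasl, a death ligand of cytotoxic lymphocytes, was at 0.0485 to 0.194 CPM against 0.87 to 1.77 CPM (log2 difference 3.53 ± 0.78). Eomes, a transcription factor of NK and memory CD8+ cells, was at 0 to 0.243 CPM against 1.29 to 1.81 CPM (log2 difference 3.51 ± 0.94). Klrd1, the CD94 subunit of NK receptors, was at 0.824 to 1.11 CPM against 2.87 to 5.40 CPM (log2 difference 1.97 ± 0.57). None of these groups overlapped. The protease Gzmb, which cytotoxic granules deliver to target cells, was nearer, at 1.26, 0.485 and 2.51 CPM against 3.00, 3.63 and 5.91 CPM, a log2 difference of 1.56 ± 0.69 (adjusted p = 0.555). Ifng, the cytokine interferon gamma, had 3, 0 and 2 counts with anti-PD1 and 6, 16 and 33 counts with the combination, a ratio of 9.33 (exact 95% interval 3.76 to 29.9, counting error only). Over the list, 10 of 17 members were higher and 0 lower at an unadjusted p under 0.05, 14 did not overlap, all 17 had a positive difference and the median was 1.97. Without combination replicate 3, 5 of the 17 were higher at that level, with a median of 1.62. The score of the list, its mean log2 CPM, ran from -1.035 to 0.03 with anti-PD1 and from 1.051 to 2.091 with the combination. Vehicle libraries ran from -1.029 to 1.83 and overlapped both groups. With regorafenib alone the list median was 0.03 in this experiment. It was 0.17 in the experiment of the series that also held the antibody DC-101, and 1.29 in that of doses.

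The target of the antibody itself, Pdcd1, was at 2.91, 2.08 and 4.29 CPM with anti-PD1 and at 3.22, 5.07 and 10.9 CPM with the combination, and the groups overlapped (log2 difference 1.05 ± 0.57, adjusted p = 0.656). Among other checkpoint receptors, Btla, an inhibitory receptor of lymphocytes, was at 0.582, 0.339 and 0.434 CPM against 2, 2.46 and 3.50 CPM, a log2 difference of 2.54 ± 0.49 (adjusted p = 0.472). Tigit, an inhibitory receptor of T and NK cells, was at 0.339 to 1.16 CPM against 1.83 to 5.19 CPM (log2 difference 2.32 ± 1.01). The costimulatory receptors Tnfrsf4 and Tnfrsf18, known as OX40 and GITR, had log2 differences of 1.60 ± 0.45 and 1.97 ± 0.70 and did not overlap either. In all, 5 of 16 checkpoint genes were higher and 0 lower at an unadjusted p under 0.05, with 6 not overlapping and a median of 1.09. The score of this list overlapped between the groups, since anti-PD1 replicate 3 at 2.37 was above combination replicate 1 at 2.33, and the median was 1.82 without that anti-PD1 library, 0.62 without combination replicate 3 (2 of 16 higher) and 0.13 among genes with at least 10 counts in every library.

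Chemokines and receptors that guide lymphocytes were led by Cxcl13, the ligand that attracts B cells and follicular helper T cells. It was at 1.31, 1.55 and 2.12 CPM with anti-PD1 and at 11.6, 20.3 and 21.6 CPM with the combination, a log2 difference of 3.42 ± 0.71 (adjusted p = 0.472). The vehicle libraries were at 34.4, 30.0 and 3.92 CPM and those with regorafenib alone at 6.48 to 19.3 CPM, so the anti-PD1 libraries were the lowest of the 4 groups. Ccr7, the receptor for lymph node homing, was at 0.627 to 0.728 CPM against 1.57 to 2.80 CPM (log2 difference 1.81 ± 0.50). Cxcr3, the receptor for interferon-induced chemokines on effector T cells, was at 0.485 to 1.06 CPM against 1.65 to 3.54 CPM (log2 difference 1.88 ± 0.69). Its ligand Cxcl9 was at 21.8, 12.1 and 32.8 CPM against 36.1, 60.0 and 217 CPM, a log2 difference of 2.23 ± 1.19 (adjusted p = 0.642), and a vehicle library at 291 CPM was above all 6. Without combination replicate 3 the difference was 1.11. In this list 4 of 15 members were higher and 0 lower at an unadjusted p under 0.05, 10 did not overlap and the median was 1.33.

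Dendritic cells present antigen to T cells, and type 1 conventional dendritic cells carry the chemokine receptor Xcr1. Xcr1 was at 0.243, 0.0485 and 0.193 CPM with anti-PD1 and at 1.65, 3.63 and 7.34 CPM with the combination, a log2 difference of 4.66 ± 1.20 (adjusted p = 0.472). Ccl22, a chemokine of dendritic cells and macrophages, had 3, 2 and 3 counts against 30, 36 and 46 counts, a ratio of 11.9 (exact 95% interval 5.82 to 28.2, counting error only). Irf4, a transcription factor of dendritic, B and plasma cells, was at 0.242 to 0.482 CPM against 1.22 to 2.11 CPM (log2 difference 2.13 ± 0.62). Of 17 dendritic cell genes, 8 were higher and 0 lower at an unadjusted p under 0.05, 10 did not overlap, and the median was 1.04. It was 0.56 among genes with 10 counts or more in every library, and 0.70 once combination replicate 3 was left out. The lists share members, and Xcr1, Ccr7 and Ccl22 each stand in more than 1.

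MHC class II genes were higher by the median but spread widely. H2-Ob, a chain of the H2-O protein that tempers peptide loading, was at 0.631, 0.63 and 1.01 CPM with anti-PD1 and at 1.70, 2.50 and 8.14 CPM with the combination (log2 difference 2.43 ± 0.81). Ciita, the master activator of class II transcription, was at 4.42, 3.00 and 8.68 CPM against 8.88, 18.7 and 56.5 CPM (log2 difference 2.38 ± 1.09). H2-Eb1, a class II beta chain, overlapped at 173, 92.9 and 360 CPM against 231, 705 and 1646 CPM (log2 difference 2.05 ± 1.13). The lysosomal reductase Ifi30 went the other way at 193 to 293 CPM against 168 to 206 CPM (log2 difference -0.41 ± 0.23). The median over 12 class II genes was 1.80, with 2 higher and 0 lower at an unadjusted p under 0.05 and 2 not overlapping. Without combination replicate 3 it was 0.93, and with the mitochondrial share as a covariate 0.85, with 0 members at an unadjusted p under 0.05 by edgeR in either case. Of 21 class I genes, 2 were higher and 0 lower, 5 did not overlap and the median was 0.36, and without combination replicate 3 it was 0.13, with 0 higher by edgeR. The class I activator Nlrc5 differed most among them, at 20.9, 24.5 and 19.6 CPM against 49.8, 48.4 and 80.7 CPM (log2 difference 1.46 ± 0.63). Reads of H2 genes may be shared among near-identical copies.

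Interferon gamma induces genes such as the guanylate-binding proteins, which restrict intracellular pathogens, and Cxcl10, a ligand of CXCR3. Many of their promoters hold the interferon-stimulated response element, searched here as GAAA, any 2 bases and GAAA again, on either strand, with no other motif searched. The 3 promoter windows of interferon gamma response genes below are shown because most members of the list lay on the same side, each from 250 bases before to 50 bases after the RefSeq start (GRCm38.p6), with the motif or its reverse complement in capitals. Gbp7 lies at chr3:142530086-142530385 on the + strand, Gbp5 at chr3:142496684-142496983 on the + strand and Cxcl10 at chr5:92348840-92349139 on the - strand, and each window holds 1 match. Only windows with a match were printed, so a match in each was fixed by that choice.
Gbp7: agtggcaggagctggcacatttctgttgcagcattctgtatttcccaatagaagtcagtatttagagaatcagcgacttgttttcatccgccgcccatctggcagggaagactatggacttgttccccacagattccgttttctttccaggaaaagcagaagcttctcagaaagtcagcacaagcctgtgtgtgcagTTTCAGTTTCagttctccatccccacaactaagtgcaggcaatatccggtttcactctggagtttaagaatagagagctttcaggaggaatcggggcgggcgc
Gbp5: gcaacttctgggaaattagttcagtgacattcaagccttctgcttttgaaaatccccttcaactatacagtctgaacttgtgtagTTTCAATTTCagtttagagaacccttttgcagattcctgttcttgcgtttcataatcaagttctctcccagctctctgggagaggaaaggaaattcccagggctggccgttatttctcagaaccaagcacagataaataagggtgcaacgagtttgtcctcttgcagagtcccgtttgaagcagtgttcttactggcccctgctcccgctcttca
Cxcl10: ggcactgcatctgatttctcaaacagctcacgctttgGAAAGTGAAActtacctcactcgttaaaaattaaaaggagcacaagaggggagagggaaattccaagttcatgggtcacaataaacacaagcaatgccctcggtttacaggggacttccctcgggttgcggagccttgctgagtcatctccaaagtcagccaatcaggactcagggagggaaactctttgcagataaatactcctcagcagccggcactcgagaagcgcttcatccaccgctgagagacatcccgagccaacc
The motif was in 1131 of 32851 promoter windows of the table (3.44%). For the interferon gamma response list, 16 genes matched the table and 12 of their 19 windows held it (63.2%), and for the type I interferon list, 20 genes matched and 12 of 23 windows held it (52.2%). It was in 0 of 8 windows of B cell and plasma cell genes, 0 of 16 of T cell genes and 1 of 31 of hepatocyte genes. A match is a description of letters in the window and not a bound site.

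Gbp7, whose window is printed above, was at 15.5, 14 and 21.6 CPM with anti-PD1 and at 23.8, 33.2 and 67.3 CPM with the combination, a log2 difference of 1.28 ± 0.58 (adjusted p = 0.568). Gbp5, which takes part in inflammasome activation, overlapped at 3.25, 5.62 and 15.1 CPM against 10.4, 24.5 and 57.9 CPM (log2 difference 1.95 ± 0.93, adjusted p = 0.594). Cxcl10 was at 11.4, 21.5 and 10.1 CPM against 24, 30.9 and 53.2 CPM (log2 difference 1.33 ± 0.73, adjusted p = 0.658). The GTPase Iigp1, an interferon-induced host defence gene, was further apart, at 10.4, 17.5 and 43.2 CPM against 83.9, 69.5 and 207 CPM (log2 difference 2.34 ± 0.80, adjusted p = 0.474). For all 4 genes a vehicle library, at 102, 77.1, 53.9 and 316 CPM in the same order, was above each of the 6 compared libraries. Gbp5 and Cxcl10 were chosen after their values were seen.

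All 22 interferon gamma response genes had a positive difference, 5 at an unadjusted p under 0.05, with 11 not overlapping and a median of 1.24. With regorafenib alone the median was -0.88 in this experiment, 0.70 in that with DC-101 and 0.625 in that of doses. Combination replicate 3 was the highest library of both groups, and without it the median was 0.72 and 0 of 22 had an unadjusted p under 0.05 in edgeR. Type I interferon genes had a median of 0.70 over 28 members, with 1 higher and 0 lower at an unadjusted p under 0.05 and 13 not overlapping. The member with the smallest p was Herc6, an ISG15 ligase, at 4.12 to 7.46 CPM against 9.70 to 17.0 CPM (log2 difference 1.22 ± 0.43). The nucleic acid sensor Zbp1 overlapped at 20.0 to 26.8 CPM against 25.1 to 79.7 CPM.

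**Figure D2:**
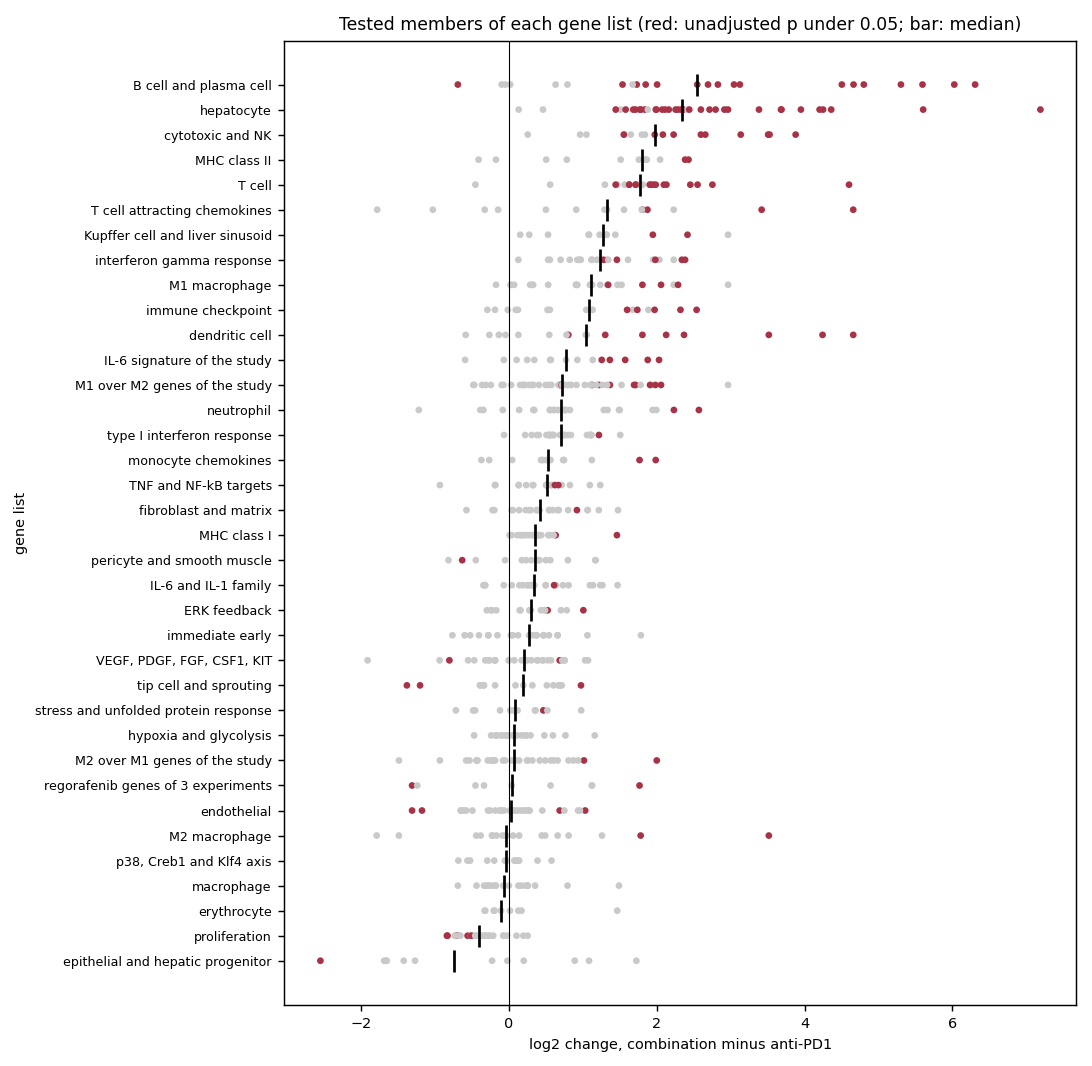
Log2 difference of the combination minus anti-PD1 (x axis) for each tested member of 36 gene lists (y axis), red where the unadjusted p was under 0.05, with a bar at the median. B cell and plasma cell (2.55), hepatocyte (2.34) and cytotoxic and NK genes (1.97) have the highest medians, and epithelial and hepatic progenitor (-0.75) and proliferation genes (-0.41) the lowest.

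Macrophages are a known target of regorafenib through the CSF1 receptor, and the question of the study included their polarization. The general macrophage list had a median of -0.07 over 20 genes, 0 at an unadjusted p under 0.05 in edgeR in either direction, and 1 not overlapping each way. Adgre1, which encodes F4/80, was at 119, 91.5 and 159 CPM with anti-PD1 and at 94.8, 139 and 181 CPM with the combination, and overlapped (log2 difference 0.17 ± 0.31). The integrin Itgam, present on monocytes and neutrophils as CD11b, was at 77.2 to 94.9 CPM against 102 to 189 CPM (log2 difference 0.79 ± 0.39, adjusted p = 0.605). Trem2, a lipid receptor of tumour macrophages, was lower without overlap, at 223, 130 and 170 CPM against 96.2, 113 and 115 CPM (log2 difference -0.69 ± 0.44, adjusted p = 0.709).

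M1 genes, associated with inflammatory macrophages, had a median of 1.11 over 24 members, with 4 higher and 0 lower at an unadjusted p under 0.05 and 12 not overlapping, and of 0.66 with the mitochondrial share as a covariate. Their leading member was Fpr2, a formyl peptide receptor of phagocytes, at 4.90, 5.33 and 10.5 CPM with anti-PD1 and 19.5, 26.1 and 40.9 CPM with the combination (log2 difference 2.06 ± 0.43, adjusted p = 0.472). After Fpr2 came Ccr7, given above, and then the interleukin 12 subunits, Il12a with 0.436 to 1.01 CPM against 1.73 to 2.09 CPM, and Il12b with 0.097 to 0.194 CPM against 0.435 to 1.06 CPM. Nos2, the inducible nitric oxide synthase, overlapped at 1.5, 2.08 and 5.50 CPM against 3.04, 6.17 and 8.06 CPM, and so did the cytokine Il6 at 0.146 to 0.723 CPM against 0.435 to 2.20 CPM. Tnf was at 3.4, 4.36 and 1.30 CPM against 6, 5.38 and 10 CPM and did not overlap (log2 difference 1.24 ± 0.66, adjusted p = 0.644).

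M2 genes, associated with tissue repair, had a median of -0.03 over 19 members, with 2 higher and 0 lower at an unadjusted p under 0.05, and that median was 0.40 without anti-PD1 replicate 3. Those 2 were Ccl22 and Mgl2, the latter a galactose lectin at 0.241 to 0.582 CPM against 0.76 to 1.96 CPM (log2 difference 1.78 ± 0.60). The mannose receptor Mrc1 overlapped at 280, 116 and 315 CPM against 340, 348 and 311 CPM. Chil3, a chitinase-like lectin, overlapped at 0.145 to 2.02 CPM against 0.189 to 0.304 CPM (log2 difference -1.79 ± 0.93). Leaving out 1 library gave -2.29 to -0.47 for Chil3. Of the lists the study itself chose, genes higher in M1 than in M2 cells had a median of 0.72 over 48 members, with 10 higher and 0 lower (5 higher without combination replicate 3), and genes higher in M2 had a median of 0.07 over 30, with 2 higher and 0 lower. The study chose these lists, and they are not independent evidence of a direction.

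The p38 kinase, Creb1 and Klf4 form an axis that the study examined in macrophages. In these tumours Klf4, a transcription factor of M2 macrophages and endothelium, was at 12.3, 11.5 and 13.2 CPM against 8.18, 13.0 and 15 CPM and overlapped (log2 difference -0.03 ± 0.45, adjusted p = 0.985). Creb1, a cAMP-responsive transcription factor, was at 49.5 to 56.6 CPM against 61.2 to 77.4 CPM (log2 difference 0.39 ± 0.18, adjusted p = 0.589). Mapk14, the p38 alpha kinase, overlapped at 78.2 to 91.5 CPM against 78.3 to 104 CPM, while Mapk12, the p38 gamma kinase, was lower at 13.6 to 19.9 CPM against 7.93 to 10.8 CPM (log2 difference -0.68 ± 0.37, adjusted p = 0.646). Over 15 genes of the axis, 0 had an unadjusted p under 0.05 in edgeR, DESeq2 called 0 and the median was -0.03. RNA levels do not measure phosphorylation of these proteins.

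Chemokines that recruit monocytes had a positive difference in 10 of 12 members. Ccl7, a ligand of CCR2, was at 18.2, 21 and 5.64 CPM with anti-PD1 and at 48.1, 43.9 and 60.9 CPM with the combination (log2 difference 1.77 ± 0.58, adjusted p = 0.472). Its log2 difference with regorafenib alone was also 1.77. Ccl12, a ligand of the same receptor, was at 85.8, 95.5 and 29.3 CPM against 130, 173 and 155 CPM (log2 difference 1.12 ± 0.54, adjusted p = 0.60). Ccl2 overlapped at 109, 80.8 and 26.3 CPM against 128, 86.9 and 105 CPM (log2 difference 0.56 ± 0.53, adjusted p = 0.801). The ligand Ccl8 was at 1.94 to 13.1 CPM against 19.3 to 46.2 CPM (log2 difference 1.99 ± 0.83). Of the list, 2 were higher and 0 lower at an unadjusted p under 0.05, with a median of 0.53.

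Neutrophil genes had a median of 0.71 over 24 members, with 2 higher and 0 lower, G0s2 (3.49 to 9.45 CPM against 16.7 to 44.0 CPM) and Acod1 (1.11 to 2.67 CPM against 5.92 to 16.7 CPM). That median was 0.46 without anti-PD1 replicate 1, 1.13 without anti-PD1 replicate 3 and, after adding the hepatocyte score to the fit, 0.21 with 0 higher by edgeR; with the mitochondrial share instead it was -0.31. The neutrophil alarmins overlapped, as S100a8 was at 14.6, 12.6 and 19.4 CPM against 26.1, 12.4 and 20.8 CPM. TNF and NF-kB targets had a median of 0.51 over 19 members with 3 higher and 0 lower, among them the leukocyte adhesion molecules Vcam1 at 246 to 352 CPM against 428 to 533 CPM and Icam1 at 21.4 to 27.3 CPM against 29.1 to 49.5 CPM. The IL-6 and IL-1 family had a median of 0.34 over 23 with 1 higher, and the IL-6 signature of the study, a list it chose, a median of 0.77 over 15 with 5 higher. The latter includes hepatocyte genes such as the serpin Serpina3k, at 81.6, 206 and 127 CPM against 1215, 250 and 232 CPM, and its median was -0.14 with the hepatocyte score as a covariate.

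Endothelium is a main site of VEGF receptor inhibition, and the medians of the vessel lists were between 0.03 and 0.35. With the mitochondrial share as a covariate they were all below 0, between -0.16 and -0.69. Pecam1, the endothelial adhesion molecule CD31, was at 32.9, 33.1 and 36.1 CPM with anti-PD1 and at 35.1, 27.1 and 42.8 CPM with the combination (log2 difference 0.04 ± 0.34, adjusted p = 0.974). Kdr, VEGF receptor 2, was higher with the combination, at 9.61, 14.7 and 13.0 CPM against 18.9, 20.0 and 21.2 CPM (log2 difference 0.69 ± 0.31, adjusted p = 0.555). Cldn5, the endothelial tight junction protein, was lower, at 14.1, 7.03 and 7.95 CPM against 4, 2.99 and 4.73 CPM (log2 difference -1.31 ± 0.45, adjusted p = 0.475). Neither Kdr nor Cldn5 overlapped, and they stood in opposite directions. Sox17, an arterial transcription factor, was lower at 1.5 to 2.62 CPM against 0.568 to 1.39 CPM (log2 difference -1.18 ± 0.47), and the phosphatase Ptprb was higher at 5.43 to 6.84 CPM against 7.95 to 15 CPM (log2 difference 1.03 ± 0.44). Over 30 endothelial genes, 2 were higher and 2 lower at an unadjusted p under 0.05, 4 and 5 did not overlap, and the median was 0.03. With regorafenib alone the median of the list was -0.95 in this experiment.

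Tip cells lead new vessel sprouts. Kcne3, a potassium channel subunit of tip cells, was lower at 13.7, 7.95 and 15.5 CPM with anti-PD1 against 4.18, 4.88 and 5.23 CPM with the combination (log2 difference -1.38 ± 0.49, adjusted p = 0.476). Notch1 was higher at 9.69 to 13.3 CPM against 19.8 to 26.9 CPM (log2 difference 0.98 ± 0.43), and the VEGF coreceptor Nrp1 at 42.0 to 50.9 CPM against 60.9 to 67.0 CPM (log2 difference 0.51 ± 0.27). The Notch target Hey1 overlapped at 142, 131 and 65.4 CPM against 82.4, 36.7 and 28.1 CPM (log2 difference -1.20 ± 0.48). The tip cell product Esm1 overlapped at 1.55, 5.96 and 18.7 CPM against 3.04, 8.14 and 9.58 CPM, as did the growth factor Vegfa at 38.7 to 102 CPM against 79.0 to 99.2 CPM. Of 17 tip cell genes, 1 was higher and 2 lower, with a median of 0.20. The receptors and ligands of the VEGF, PDGF, FGF, CSF1 and KIT families gave 1 higher and 1 lower of 30, with a median of 0.20. Pericyte and smooth muscle genes gave 0 higher and 1 lower of 14, the adhesion molecule Mcam at 38.8 to 47.9 CPM against 23.9 to 30.5 CPM (log2 difference -0.63 ± 0.24), with a median of 0.35. That median was between 0.19 and 0.60 with 1 library left out.

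Proliferation genes were lower by the median, -0.41 over 27 members, with 6 lower and 0 higher at an unadjusted p under 0.05, 12 not overlapping below and 3 with a positive difference. Without combination replicate 3, 0 were lower at that level by edgeR, where 124 of all 16615 genes were, and the median was -0.37. It was -0.26 without anti-PD1 replicate 2. Cdc20, an activator of the anaphase-promoting complex, was at 142, 135 and 87.2 CPM against 75.6, 69.7 and 59.9 CPM (log2 difference -0.83 ± 0.29, adjusted p = 0.476). Mcm7, a subunit of the replicative helicase, was at 124 to 141 CPM against 82.3 to 98.8 CPM (log2 difference -0.51 ± 0.18), and the mitotic kinase Aurka at 55.5 to 96.6 CPM against 41.9 to 50.9 CPM (log2 difference -0.72 ± 0.28). The related kinase Aurkb overlapped at 56.1 to 104 CPM against 47.0 to 59.7 CPM. Mki67, the antigen of Ki67 staining, overlapped at 179, 284 and 156 CPM against 260, 259 and 220 CPM (log2 difference 0.25 ± 0.57), so it did not follow the list. The vehicle libraries were lower than the anti-PD1 libraries for Cdc20, at 47.8 to 90.2 CPM, with an overlap of 1 library.

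Among lower genes whose groups did not overlap and whose log2 CPM averaged 0 or more, those with the smallest p were led by Tnnt2, the cardiac troponin T (chr1:135836354-135852260), at 48.9, 40.3 and 10.5 CPM with anti-PD1 and 5.13, 3.33 and 1.81 CPM with the combination, a log2 difference of -3.28 ± 0.60 (adjusted p = 0.472). Vehicle libraries were at 3.54 to 7.96 CPM, close to the combination. Hmga2, an architectural chromatin protein of embryonic and tumour cells, was at 314, 372 and 194 CPM against 99.9 to 157 CPM, with vehicle at 147 to 178 CPM (log2 difference -1.30 ± 0.31). Ust, a sulfotransferase, was at 21.9 to 28.2 CPM against 8.97 to 12.6 CPM, with vehicle at 7.57 to 14.2 CPM (log2 difference -1.21 ± 0.30). For these 3 genes every anti-PD1 library stood above all 9 others of the experiment. For Tent5b and Mfge8 the combination libraries were also below the vehicle libraries. Tent5b, a noncanonical poly(A) polymerase, was at 3.68 to 9.74 CPM against 1.22 to 1.91 CPM, and its log2 difference of -2.04 ± 0.45 stood beside -2.03 with regorafenib alone in this experiment, -2.34 in that with DC-101 and 0.01 in that of doses. Mfge8, a bridging protein for the uptake of dying cells, was at 192, 174 and 180 CPM against 86.3, 98.5 and 116 CPM (log2 difference -0.86 ± 0.19), with -0.70 for regorafenib alone in this experiment, 0.30 in that with DC-101 and -0.26 in that of doses.

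Of 23 fibroblast and matrix genes, 1 was higher and 0 lower, the surface protein Thy1 at 8.38 to 12.5 CPM against 13.6 to 23.2 CPM (log2 difference 0.92 ± 0.29), with a median of 0.42. The median was 0.27 without anti-PD1 replicate 1, 0.70 without anti-PD1 replicate 3 and 0.96 after adding the hepatocyte score to the fit. Thy1 is also a T cell protein. ERK feedback genes had a median of 0.30 over 15 with 2 higher and 0 lower, the transcription factor Etv1 at 7.61 to 14.7 CPM against 20.9 to 23 CPM and the ERK pathway inhibitor Spred1 at 91.9 to 104 CPM against 117 to 157 CPM. Immediate early genes had a median of 0.27 over 21, hypoxia and glycolysis genes 0.07 over 23 and erythrocyte genes -0.11 over 9, each with 0 members at an unadjusted p under 0.05 in edgeR. The immediate early median was between 0.13 and 0.50 with 1 library left out. Without anti-PD1 replicate 3 the hypoxia median was 0.85 and the erythrocyte median 1.44, and the erythrocyte median was -1.51 after adding the hepatocyte score to the fit. The stress and unfolded protein response gave 1 higher of 12 with a median of 0.09. Epithelial and hepatic progenitor genes gave 1 lower of 12, the biliary keratin Krt19, at 77.2, 10.7 and 8 CPM against 9.79, 2.84 and 3.76 CPM, with a median of -0.75. The groups of Krt19 overlapped, with anti-PD1 replicate 1 far above the rest, and without that library the median of the list was 0.24, while the mitochondrial share as a covariate gave -1.85 with 6 of 12 lower.

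Hepatocyte genes had the second highest median of all lists, 2.34 over 38 members, with 32 higher and 0 lower at an unadjusted p under 0.05 and 29 not overlapping. Without combination replicate 1, 3 of the 38 were higher at that level, where 562 of all 16615 genes were, and the median was 1.02. Cyp2e1, a cytochrome P450 of hepatocytes around the central vein, was at 22.6, 58.3 and 26.4 CPM with anti-PD1 and at 1094, 164 and 118 CPM with the combination (log2 difference 3.68 ± 1.04, adjusted p = 0.472). Apob, the apolipoprotein of secreted lipoproteins, was at 24.9, 66.9 and 52.4 CPM against 485, 131 and 121 CPM, and Cyp2c29 at 0.728, 2.28 and 1.64 CPM against 215, 6.74 and 4.98 CPM. Combination replicate 1 was the highest library in each of these 3 genes, and the list median was 2.69 without combination replicate 3. Liver sinusoid and Kupffer cell genes had a median of 1.28 over 12, with 2 higher and 0 lower, the nuclease Dnase1l3 at 0.582 to 2.60 CPM against 3.41 to 11 CPM and the phosphatidylserine receptor Timd4 at 0.34 to 1.40 CPM against 2.16 to 4.18 CPM. That median was 0.15 after adding the hepatocyte score to the fit, 0.81 without combination replicate 1, 0.82 without anti-PD1 replicate 1 and 2.16 without anti-PD1 replicate 3. The lymphocyte lists did not share that library as their highest, which was replicate 3 for the T cell, the cytotoxic and NK and the B cell and plasma cell scores.

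**Figure D3:**
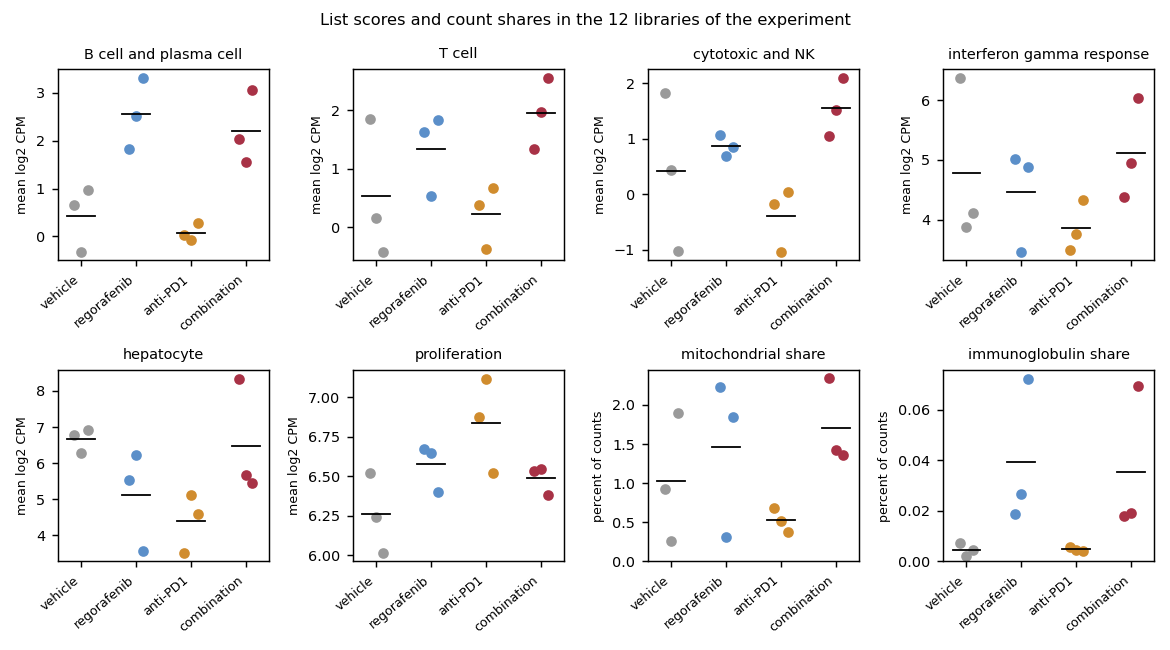
Mean log2 CPM of 6 gene lists and the percent of counts from mitochondrial and immunoglobulin genes in the 12 libraries of the experiment, by group (x axis), with a line at each group mean. Combination libraries are above anti-PD1 libraries without overlap for the T cell (1.34 to 2.55 against -0.37 to 0.67) and hepatocyte scores, whereas vehicle libraries, at -0.42 to 1.85, overlap both groups in the T cell panel.

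In a refit that took the hepatocyte score as a covariate, the median of the hepatocyte list was 0.16, as the score is made of these genes, while those of T cell, cytotoxic and NK, and MHC class II genes were 2.50, 2.56 and 2.99. At an unadjusted p under 0.05, 13 of 17 cytotoxic and NK genes, 14 of 23 B cell and plasma cell genes and 8 of 12 class II genes were higher in that refit, where 587 of all 16615 genes were higher and 274 lower. With the mitochondrial share as a covariate instead, the list counts were 8 of 17, 11 of 23 and 0 of 12, and 0 of 22 interferon gamma response genes, whose median was 0.69, had an unadjusted p under 0.05 by edgeR. The medians of T cell, cytotoxic and NK, and B cell and plasma cell genes were 1.53, 2.05 and 2.33 in that refit. It gave 1261 higher and 1377 lower of all 16615 genes at an unadjusted p under 0.05, which is the background for its counts. The median of tip cell genes was -0.69, with 5 of 17 lower and 0 higher. VEGF, PDGF, FGF, CSF1 and KIT receptors and ligands had a median of -0.31, with 5 of 30 lower and 1 higher, and pericyte genes of -0.35, with 2 of 14 lower and 1 higher. For endothelial genes it was -0.16, with 1 of 30 lower and 0 higher. Medians that turned below 0 were also found for ERK feedback (-0.63, with 7 of 15 lower), immediate early (-0.58), hypoxia and glycolysis (-0.51), neutrophil (-0.31), IL-6 and IL-1 family (-0.29), TNF and NF-kB (-0.23), the M2 over M1 genes of the study (-0.29), and fibroblast and matrix genes (-0.15). The scores of 16 of the 36 lists did not overlap between the groups with the combination above, and those of 0 lists with it below.

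Whether regorafenib differed in its change with and without the antibody was tested as the difference of both contrasts in the same fit, which share no library. No gene passed an adjusted p of 0.05 by edgeR (0%), the smallest was 0.244, and 1335 genes (8.03%) had a larger and 459 (2.76%) a smaller log2 difference beside the antibody at an unadjusted p under 0.05. DESeq2 called 534 genes and limma voom 0. The groups of genes that leaned most were of the liver, with a median difference of 4.16 over 12 sinusoid and Kupffer cell genes, 11 at an unadjusted p under 0.05, and of 3.76 over 38 hepatocyte genes, 32 at that level. For cytotoxic and NK genes the median was 2.06 with 6 of 17, for interferon gamma response genes 2.06 with 8 of 22, and for T cell genes 1.24 with 1 of 22. Neutrophil genes had 2.32 with 8 of 24, the IL-6 signature of the study 2.24 with 9 of 15, endothelial genes 0.98 with 8 of 30, and VEGF, PDGF, FGF, CSF1 and KIT receptors and ligands 0.39 with 8 of 30. Proliferation genes went the other way, with a median of -0.815. At that level 7 of 27 had a smaller log2 difference beside the antibody and 0 a larger one. Among lymphocyte-guiding genes Cxcl13 had a difference of 4.34 (adjusted p = 0.244), from -0.92 with regorafenib alone to 3.42 beside the antibody. 

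Averaged over both settings, 6 libraries with regorafenib against 6 without, Igkc was the 1 gene called (0.00602%), higher by 4.18 on the log2 scale (adjusted p = 0.0459 in edgeR). It was higher in 6 of 6 libraries with regorafenib than in any of the 6 without. The call rested on the setting, as limma voom and total count scaling gave 0 calls, and leaving out 1 library at a time gave between 0 and 3, with 0 in 8 of 12 fits (each vehicle or anti-PD1 library, regorafenib replicate 3 or combination replicate 1 left out).

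The 9 genes that an earlier fit over 3 experiments of this series called for regorafenib alone gave 1 higher, Ccl7, and 1 lower, Cldn5, at an unadjusted p under 0.05, with a median of 0.04. Gpr84, a fatty acid receptor of myeloid cells, was at 1.78 to 12.6 CPM against 13.2 to 20.6 CPM without overlap (log2 difference 1.13 ± 0.81). The calcium regulator Stc1 (1.21 to 4.29 CPM against 0.522 to 3.00 CPM) and Tmem255a (0.194 to 1.64 CPM against 0.189 to 0.591 CPM) overlapped, although regorafenib alone had differences of -2.68 and -3.38 for them. These genes were chosen on other libraries of the series, among them those with regorafenib alone here.

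Against the change by regorafenib alone, the correlation of log2 differences across genes was -0.07 in the same experiment (16615 genes), 0.63 in the DC-101 experiment (15792 genes) and 0.50 in the dose experiment (15738 genes). Genes are not independent replicates, and the 3 comparisons share no library with the present one. Of the genes higher at an unadjusted p under 0.05, 89.7% and 90.1% had the same sign in the DC-101 and dose experiments but 32.7% in the same experiment, where 60.1%, 58.6% and 47.3% of all genes did. Of the lower genes, 84.6% and 82.4% had the same sign in the DC-101 and dose experiments and 66.4% in the same experiment. With the hepatocyte score as a covariate in every fit, the correlations were -0.19, 0.05 and 0.20, in the order same, DC-101 and dose. The hepatocyte list had medians of -1.38, 3.21 and 1.54 with regorafenib alone in the 3 experiments, and the T cell list 0.54, 0.63 and 0.83. The B cell and plasma cell list was positive in all, at 1.79, 0.80 and 1.04.

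**Figure D4:**
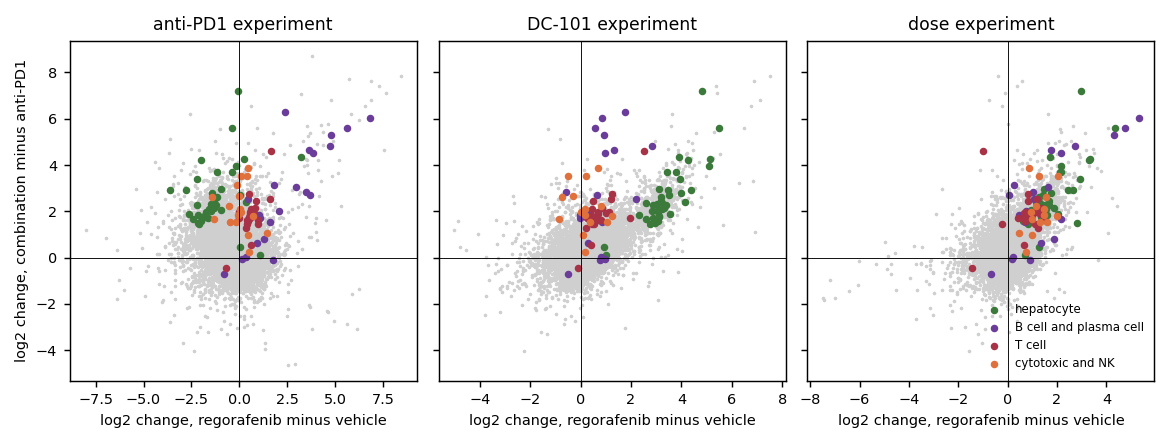
Log2 difference of the combination minus anti-PD1 (y axis) against that of regorafenib minus vehicle (x axis) in 3 experiments, 1 point per gene, with members of 4 lists in colour. Hepatocyte genes (green) lie right of 0 in the DC-101 and dose experiments and mostly left of it in the anti-PD1 experiment, which is where the correlation is -0.07 and not 0.63 or 0.50.

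Of 22 genes taken from the question of the study, 20 had a positive difference, 5 at an unadjusted p under 0.05, 9 did not overlap with the combination above and 0 with it below. Their median was 0.81 and the smallest adjusted p was 0.472.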

How the data were processed

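The deposited values used here are raw counts per gene and library, made by the authors with cutadapt 2.4 and STAR 2.7.2a on GRCm38 with Gencode genes (per the labels and the study's methods). STAR gives counts for each strand, and the column used is not given in the sources used here. The libraries were stranded mRNA libraries and held 20.5 to 25.3 M counts in the 6 compared, which gives a count of 0 an upper limit of 3 counts, for counting error only. Of 54446 gene identifiers, 54409 (99.93%) matched a Gencode annotation of the same build.

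All 12 libraries of the experiment were fitted together with edgeR 4.0.16 (limma 3.58.1, DESeq2 1.42.0, R 4.3.3), with filterByExpr (minimum count 10, minimum total 15), TMM scaling and 2-sided robust quasi-likelihood F-tests, Benjamini-Hochberg adjusted over 16615 genes. Log2 CPM used a prior count of 2. The SE of a log2 difference was taken as its absolute value over the square root of the F statistic. An exact interval for a ratio of counts is at the 95% level. Code was tested on simulated data. The libraries of the anti-PD1 group, and those of the combination group, differed from each other by more than sampling noise (chi-square per degree of freedom 23.2 to 121). Deviations from group means did not pair same-numbered libraries of both groups (r = -0.02, -0.14 and 0.23).

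The members, gene lists and named genes were chosen with earlier results of these data known. Named genes are a panel from the study's question, the 5 genes of each direction with the smallest p among those without overlap of the groups whose log2 CPM averaged 0 or more, up to 4 members of a list with the smallest p, and regorafenib genes of an earlier fit. Some of these genes are not reported here. The 36 lists had 758 entries, 752 of which were found in the tables, and shared 77 genes between lists. Alternatives were DESeq2, limma voom, RLE and total count scaling, other filters, a replicate block, the hepatocyte score as a covariate and fits of the 6 libraries alone with edgeR, and, chosen after seeing the data, the mitochondrial share as a covariate and limma voom and DESeq2 on the 6 libraries.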

Additional observations from a re-analysis of the deposited data

Results flagged for a closer look

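The hepatocyte score, the mean log2 CPM of 38 genes, moved in opposite directions with regorafenib, by 2.08 from anti-PD1 to the combination and by -1.54 from vehicle to regorafenib alone, a difference of 3.62. Every combination library was above every anti-PD1 library, and every library with regorafenib alone was below every vehicle library (6.77, 6.28 and 6.93 against 5.54, 6.24 and 3.56). The difference of the scores was not tested.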

How the results depend on the processing

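Every alternative by edgeR and limma voom left 0 genes called for the combination against anti-PD1, with 0 in each of 12 fits that left out 1 library, while DESeq2 called 210, and 1777 on the 6 libraries alone. Unadjusted counts ranged from 780 (without anti-PD1 replicate 1) to 3859 (DESeq2 on the 6 libraries alone, where edgeR gave 3793), and were 861 with the hepatocyte score and 2638 with the mitochondrial share as a covariate. For the difference between both regorafenib changes, DESeq2 called 534 and the mitochondrial share covariate 1. For the averaged change, which gave 1 call, the counts were 240 by DESeq2, 0 by limma voom, 0 with total count scaling, 32 without a filter, 11 with the hepatocyte score and 58 with the mitochondrial share, and leaving out 1 library gave 0 to 3. The replicate block gave 0 calls for the combination (1514 genes at an unadjusted p under 0.05), 0 for the difference and 6 for the average. The numbers did not pair anti-PD1 with combination libraries. For same-numbered vehicle and regorafenib libraries, deviations from group means had r = 0.085, 0.616 and 0.361. Of 2358 values of the reported genes under alternatives, 19 turned in sign, over 11 genes, none of them called. With the mitochondrial share these were Vegfa (-1.23), Mapk14 (-0.04), Nos2 (-1.71), Mki67 (-0.99) and Trem2 (0.02), with the hepatocyte score Klf4 (0.37) and Serpina3k (-0.34), with total count scaling Klf4 (0.04), and with limma voom Esm1 (0.16 with 12 or 6 libraries). Leaving out 1 library gave ranges of -0.13 to 0.20 for Pecam1, -0.83 to 0.88 for Esm1, -0.15 to 0.40 for Vegfa, -0.22 to 0.18 for Klf4, -0.07 to 0.40 for Adgre1 and -1.07 to 0.27 for Stc1. The causes were not tested. With 3 libraries a group, low counts limit the T cell and NK genes.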

Other observations

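Ribosomal protein genes, which build the ribosome and have many pseudogene copies that can share reads, were lower with the combination in 73 of 73 tested genes, 17 at an unadjusted p under 0.05 in edgeR, with groups that did not overlap for 70 and a median log2 difference of -0.86. With regorafenib alone their median was -0.04. The 7 tested mitochondrially encoded protein genes of the respiratory chain were all higher, with groups that did not overlap and a median of 1.85 (0.58 with regorafenib alone). These gene families were chosen after their values were seen.

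Immunoglobulin variable segments were higher in 21 of 21 tested genes, 16 at an unadjusted p under 0.05, with a median of 4.85 (4.08 with regorafenib alone), and 11 constant genes had a median of 4.50. The variable segments that DESeq2 called were of low abundance. Such a segment passes the count filter only through the libraries where it is high, and segments low in every library were not tested. The count of 21 of 21 is therefore not independent of the filter. T cell receptor segments had a median of 1.92 over 12 genes, 6 of them at that level, and killer cell lectin-like receptors 1.86 over 11, with 6. Of 12 major urinary protein genes, liver products with near-identical copies, 11 were higher at that level, with a median of 6.15 (5.60 with regorafenib alone). Cytochrome P450 genes had a median of 2.32 over 58, with 31 higher and 1 lower, against -1.08 with regorafenib alone. Collagen genes had a median of 0.67 over 34.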
